A study of Mus musculus with 6 samples.

Results

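Immunoglobulin G (IgG) bound to a microbe or to an antigen is read by cells through Fc gamma receptors. In the mouse, Fcgr1, Fcgr3 and Fcgr4 encode activating receptors, which signal through the shared gamma chain encoded by Fcer1g. This chain carries an ITAM, a tyrosine motif that is phosphorylated by Src family kinases and then binds the kinase Syk. Fcgr2b encodes the inhibitory receptor, whose own tyrosine motif recruits phosphatases, and Fcgrt encodes the heavy chain of the neonatal Fc receptor, which recycles IgG and albumin from endosomes and does not use the gamma chain. In bone marrow these genes are known mainly from macrophages and other myeloid cells. They are described here in cultured BMSCs with and without retinoic acid (RA), as the 6 of 25722 listed genes whose symbols are Fcgr1, Fcgr2b, Fcgr3, Fcgr4, Fcer1g and Fcgrt.

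The cultures were BM-MSCs of the C57BL/6 strain, wild type, grown from the adherent cells of tibia and femur marrow in low-oxygen, low-glucose medium with serum and a ROCK inhibitor, which all groups shared. Control cultures received the solvent DMSO (3 libraries), and the other cultures received all-trans RA (ATRA), given by the labels as 1 μM for 48 h (3 libraries). The study's methods give a lower dose and a shorter time, and the labels speak of 2 biological replicates, so that the exposure and the independence of the libraries are uncertain, and p-values measure only the spread between these libraries, which may be technical. The deposited values were reads counted per gene, and the comparison asked which of these genes differed after RA in cells that received no cytokine.

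Library totals ran from 14737636 to 18511905 counts. Levels are given as CPM, which scales counts to a common total after TMM scaling, and on this scale 3 counts of a library are worth 0.160 to 0.210 CPM. Cyp26b1, which encodes an RA-degrading enzyme and responds to RA in many cells, checked the treatment labels. It stood at 4.97, 5.96 and 4.68 CPM in the controls and at 124, 109.6 and 87.1 CPM after RA (log2 fold change 4.35, edgeR adjusted p = 0.00207). The libraries did not group by treatment on the first principal component. This component, with 57.18% of the variance of the 1000 most variable genes, parted control 2, RA 1 and RA 2 (library set 1) from control 1, control 3 and RA 3 (library set 2). The labels and methods give no batch or date for these sets, and none of the 6 Fc receptor genes was among those 1000 genes. For each of the 6 genes, values within each set are given beside the pooled ones.

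The labelled cell type was checked against marker genes. All 14 macrophage markers were expressed, with a summed level of 20134 to 22462 CPM in controls and 19912 to 21700 CPM after RA. Of the 14, 0 passed the test for a difference after RA, which called 0.0433% of all tested genes. For Itgam, an integrin of myeloid cells, all RA libraries (1513 to 1809 CPM) lay above the controls (1417 to 1447 CPM, log2 fold change 0.24, edgeR adjusted p = 0.795). It was the 1 marker of the 14 whose groups did not overlap, against 12.6% of all tested genes. Lyz2, the lysozyme of macrophages and neutrophils, had the highest mean over the 6 libraries at 5543 to 9779 CPM, although Adgre1 stood above it in control 1. Of 12 mesenchymal markers, 10 passed the filter on low counts, summing to 2305 to 4433 CPM in controls and 1687 to 3457 CPM after RA, and Col1a1, a fibrillar collagen, had the highest mean over the libraries at 414 to 1648 CPM, although Cxcl12 was above it in RA 3. Of 3 surface proteins that commonly define MSCs, Thy1 and Nt5e had at most 7 and 21 counts in any library, while Eng was at 33.1 to 59.8 CPM. Cxcl12, a chemokine of marrow stroma, was at 368 to 578 CPM. Of the 10 tested mesenchymal markers 0 were called, although all RA libraries lay above the controls for Lepr (log2 fold change 3.35, edgeR adjusted p = 0.292) and Cxcl12 (0.34, adjusted p = 0.795) and below them for Ly6a (-0.90, adjusted p = 0.172). Other cells that carry Fc receptors were scarce. The neutrophil markers summed to between 1.52 and 2.73 CPM, with S100a8 highest in the mean over all 6 libraries, the mast cell markers reached at most 3 counts, the NK and T cell markers at most 1 count, the only tested B cell marker, Cd79b, 0.278 to 5.39 CPM, and the only tested dendritic cell marker, Xcr1, 0.614 to 0.888 CPM. Osteoclast markers summed to 37.1 to 42.8 CPM in controls and 24.3 to 32.7 CPM after RA, and these sums did not overlap. Taken singly, 0 of the 3 tested markers had groups without overlap (12.6% of all tested genes), and 0 were called (0.0433%). Acp5, an acid phosphatase, was highest in the mean over all libraries, with Ctsk above it in the 3 libraries of set 1. In such bulk RNA, fewer cells of a type and less RNA per cell cannot be told apart.

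In the GRCm38 build, 4 of the 6 genes lie close together on chromosome 1: Fcgr2b (ENSMUSG00000026656, 170958617 to 170976547, minus strand), Fcgr4 (ENSMUSG00000059089, 171018920 to 171029761, plus strand), Fcgr3 (ENSMUSG00000059498, 171051174 to 171064935, minus strand) and Fcer1g (ENSMUSG00000058715, 171229572 to 171234365, minus strand). Fcgr1 (ENSMUSG00000015947) lies on chromosome 3 at 96282909 to 96293969 and Fcgrt (ENSMUSG00000003420) on chromosome 7 at 45092990 to 45103851, both on the minus strand. Counts of Fcgr2b and Fcgr3 are uncertain to a degree, since the exons of these genes share 166 windows of 50 bases, 9.58% of those of Fcgr3 and 2.92% of those of Fcgr2b. With any other gene, on either strand, Fcgr2b shared 395 windows in all (6.95%). Each of the other 4 genes shared 0 such windows with any gene. The antisense gene Gm38204 overlaps exons of Fcgr2b by 155 bases, and whether counting used the strand is not given in the sources used here.

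The stretches before the transcription starts are shown because Spi1 (PU.1), the ETS factor of myeloid cells, is known to bind the letters GAGGAA. These exact letters were found before the 3 activating receptors and not before Fcgr2b, the inhibitory receptor. Sequences are the 100 bases before the RefSeq start (build GRCm38.p6), 5′ to 3′ on the strand of the gene, and capitals mark TTCCTC, which reads GAGGAA on the opposite strand. Fcgr3 has a second listed start, and the first is shown. The RefSeq starts and the gene bounds given above come from different annotations. By those bounds, the stretches of Fcgr3 and Fcgr2b lie inside the genes, and that of Fcgr4 reaches into its gene at its end.
Fcgr1 (chr3:96293970-96294069, minus strand): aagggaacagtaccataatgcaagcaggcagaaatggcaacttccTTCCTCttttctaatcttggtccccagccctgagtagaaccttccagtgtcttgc
Fcgr3 (chr1:171059404-171059503, minus strand): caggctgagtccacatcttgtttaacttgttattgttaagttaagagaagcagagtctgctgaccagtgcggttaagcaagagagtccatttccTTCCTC
Fcgr4 (chr1:171018826-171018925, plus strand): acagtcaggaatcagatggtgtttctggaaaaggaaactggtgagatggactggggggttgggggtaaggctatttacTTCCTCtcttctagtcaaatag
Fcgr2b (chr1:170976072-170976171, minus strand): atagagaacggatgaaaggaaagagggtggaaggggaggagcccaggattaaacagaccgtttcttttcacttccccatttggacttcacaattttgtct

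Over the 250 bases before the start, on both strands, GAGGAA was found before Fcgr1, Fcgr3 and Fcgr4 and not before Fcgr2b, Fcer1g or Fcgrt. Of 32851 RefSeq promoters, 23.25% held it in a window of that length. AGGTCA, the letters bound by retinoid receptors and other nuclear receptors, was found only before Fcgr2b, from base -211 to base -206 counted from the start, and in 14.02% of all promoters. A match of letters describes the sequence and shows no binding. Other forms of these sites were not searched, so a missing match does not show that a promoter lacks a site.

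All 6 genes were expressed in all 6 libraries, from 369 counts (Fcgr4, control 2) to 15291 counts (Fcer1g, RA 2), and 0 of the 6 passed the test for a difference after RA. The edgeR quasi-likelihood test, with an adjusted p under 0.05 and at least a 1.5-fold difference, called 0.0433% of the 13842 tested genes. At an unadjusted p under 0.05 the count was also 0 of 6, against 5.25% of all tested genes. In 0 of the 6 did the RA libraries all lie on one side of the controls, which held for 12.6% of tested genes. Fitted values were higher after RA for 4 of the 6 and lower for 2, with a median log2 fold change of 0.047, against -0.018 over all tested genes. DESeq2 called 0 of the 6 and 0.983% of all genes, and the likelihood ratio test of edgeR called 0 of the 6 and 0.968%.

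**Figure D1:**
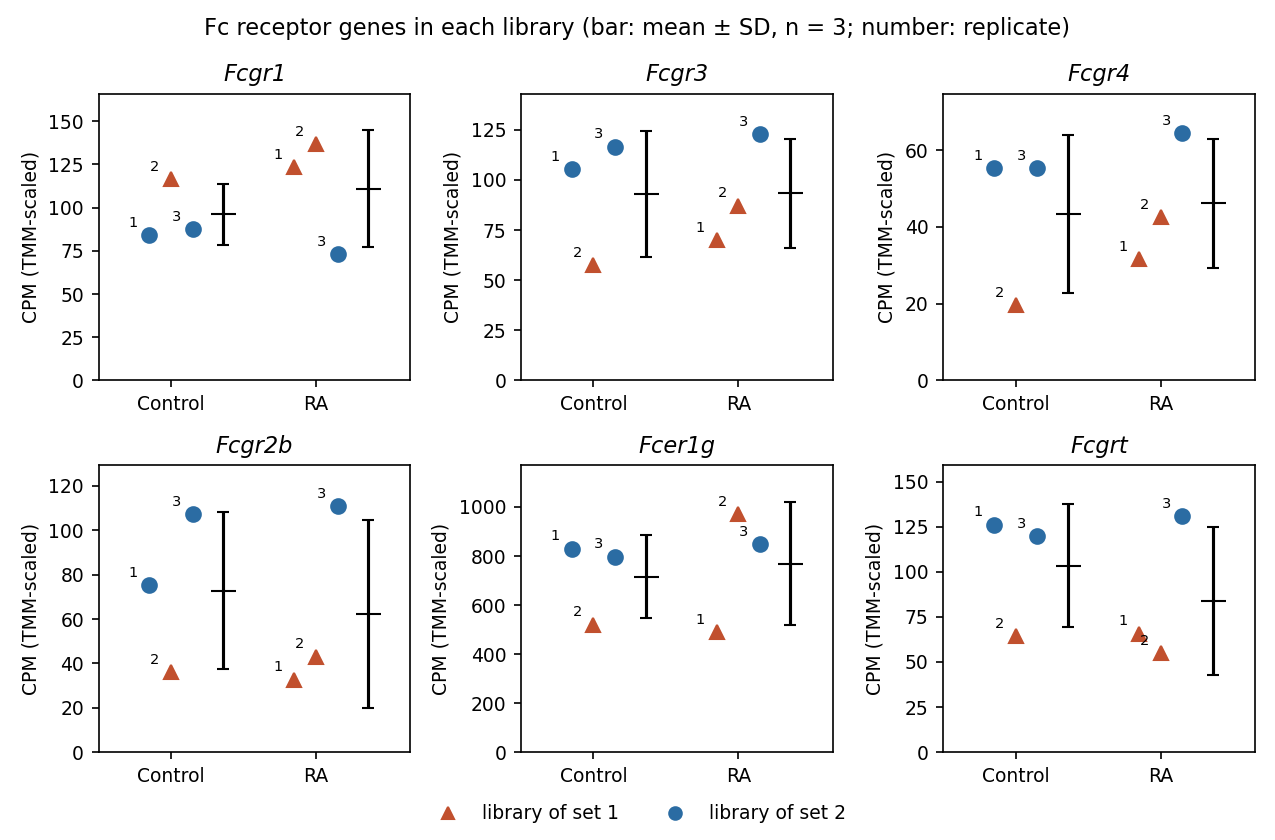
Level of each Fc receptor gene in each library, in TMM-scaled CPM on axes that start at 0, for 3 control and 3 RA libraries; numbers give the replicate, colours the library set, and bars the mean ± SD. In every panel the RA points overlap the control points, as for Fcgr1, where the controls lie at 84.0 to 117 CPM and the RA libraries at 72.9 to 137 CPM.

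Fcgr1, the activating receptor with high affinity for single IgG molecules, was measured at 84.0, 117 and 87.5 CPM in controls 1 to 3 and at 123, 137 and 72.9 CPM in RA libraries 1 to 3. The lowest and the highest library were both RA-treated, so the groups overlapped. The mean was 96.1 ± 17.9 CPM (SD, n = 3) in controls and 111 ± 33.7 CPM after RA, with a log2 fold change of 0.21 (SE 0.26, edgeR adjusted p = 0.844). Its 95% interval ran from -0.41 to 0.82 on the log2 scale. The pooled value was 0.032 without RA 2 and 0.44 without RA 3. Within set 1 the log2 difference was 0.16 and within set 2 it was -0.23, and a fit that held the library set as covariate turned the value to -0.035 (edgeR adjusted p = 0.894, interval -0.29 to 0.22). Since the sets were read from the same libraries, p-values and intervals of this fit may be too small, here and for the genes that follow.

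Fcgr3, an activating receptor of low affinity that binds immune complexes, stood at 105, 57.5 and 117 CPM in controls and at 69.8, 87.2 and 123 CPM after RA. Control 2 was lowest and RA 3 highest, with the other libraries of both groups between them. Means were 93.1 ± 31.3 CPM in controls and 93.3 ± 27.0 CPM after RA (n = 3 each), a log2 fold change of 0.0032 (SE 0.31, edgeR adjusted p = 0.998, interval -0.75 to 0.75). The sign rested on single libraries, being -0.24 without control 2 and -0.25 without RA 3. Each RA library was above the controls of its own set, by a log2 difference of 0.44 on average in set 1 and 0.15 in set 2. The covariate fit gave 0.30 (interval 0.0091 to 0.58, edgeR adjusted p = 0.318), which passed 0.05 only before adjustment.

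Fcgr4, the activating receptor for IgG2a and IgG2b complexes, had the lowest counts of the 6 genes in all 6 libraries. It was at 55.3, 19.6 and 55.3 CPM in controls and at 31.5, 42.5 and 64.5 CPM after RA. Control 2 was again lowest and RA 3 highest, and the groups overlapped. With means of 43.4 ± 20.6 CPM and 46.2 ± 16.8 CPM (n = 3 each), the log2 fold change was 0.092 (SE 0.44, edgeR adjusted p = 0.963, interval -0.95 to 1.14). Without control 2 it was -0.25 and without RA 3 it was -0.23. Within the sets the log2 differences were 0.90 (set 1, 1 control) and 0.22 (set 2, 1 RA library), and the covariate fit gave 0.56 (interval 0.12 to 0.99, edgeR adjusted p = 0.242). Fcgr3 and Fcgr4 were thus the 2 of 6 genes with an unadjusted p under 0.05 in that fit, against 15.1% of all tested genes in either direction and 6.7% with higher values, the direction of both. The fit called 0 of the 6 after adjustment and 1.54% of all genes.

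Fcgr2b, the inhibitory receptor, was at 75.2, 36.1 and 107 CPM in controls and at 32.6, 43.0 and 111 CPM after RA. Both groups ranged from low to high, with the 3 libraries of set 1 low in each case. Means of 72.8 ± 35.6 CPM and 62.2 ± 42.5 CPM (n = 3 each) gave a log2 fold change of -0.23 (SE 0.55, edgeR adjusted p = 0.922), with the widest interval of the 6 genes (-1.55 to 1.09). The sign turned without control 3 (0.16), without RA 1 (0.10) and in the covariate fit (0.18, edgeR adjusted p = 0.611). Of the fits that left out a library, the value was furthest from 0 without RA 3 (-0.95, edgeR adjusted p = 0.362), and it was -0.54 without control 2. Inside set 1 the log2 difference was 0.053 and inside set 2 it was 0.31.

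Fcer1g, the ITAM chain on which the activating receptors depend, was at 829.5, 519.8 and 797 CPM in controls and at 489, 969.5 and 848 CPM after RA. Both extremes were RA libraries. Means were 716 ± 170.3 CPM and 769 ± 249.8 CPM (n = 3 each), with a log2 fold change of 0.10 (SE 0.30, edgeR adjusted p = 0.936, interval -0.61 to 0.82). It became -0.065 without control 2 and -0.098 without RA 2, while the covariate fit gave 0.27 (edgeR adjusted p = 0.603). The log2 difference was 0.41 within set 1 and 0.060 within set 2. Among all tested genes Fcer1g ranked at the 98.3 to 99.4 percentile of CPM.

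Fcgrt, the heavy chain of the neonatal receptor, was at 126, 64.4 and 119.6 CPM in controls and at 65.8, 54.7 and 131 CPM after RA. RA 2 was lowest and RA 3 highest. Means of 103 ± 34.0 CPM and 83.8 ± 41.1 CPM (n = 3 each) gave a log2 fold change of -0.30 (SE 0.39, edgeR adjusted p = 0.849, interval -1.24 to 0.63), and the covariate fit gave -0.0017 (edgeR adjusted p = 0.995). Within set 1 the log2 difference was -0.10 and within set 2 it was 0.090. The pooled value was -0.78 without RA 3 and -0.073 without RA 2, with edgeR adjusted p of 0.337 and 1.00. B2m, the light chain with which Fcgrt pairs, was at 1097, 708 and 1303 CPM in controls and at 818, 1526 and 1425 CPM after RA. Its groups overlapped as well (log2 fold change 0.28, SE 0.31, edgeR adjusted p = 0.836). The value of B2m was 0.083 without control 2, 0.53 without RA 1 and 0.49 in the covariate fit, with 0.66 within set 1 and 0.25 within set 2.

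**Figure D2:**
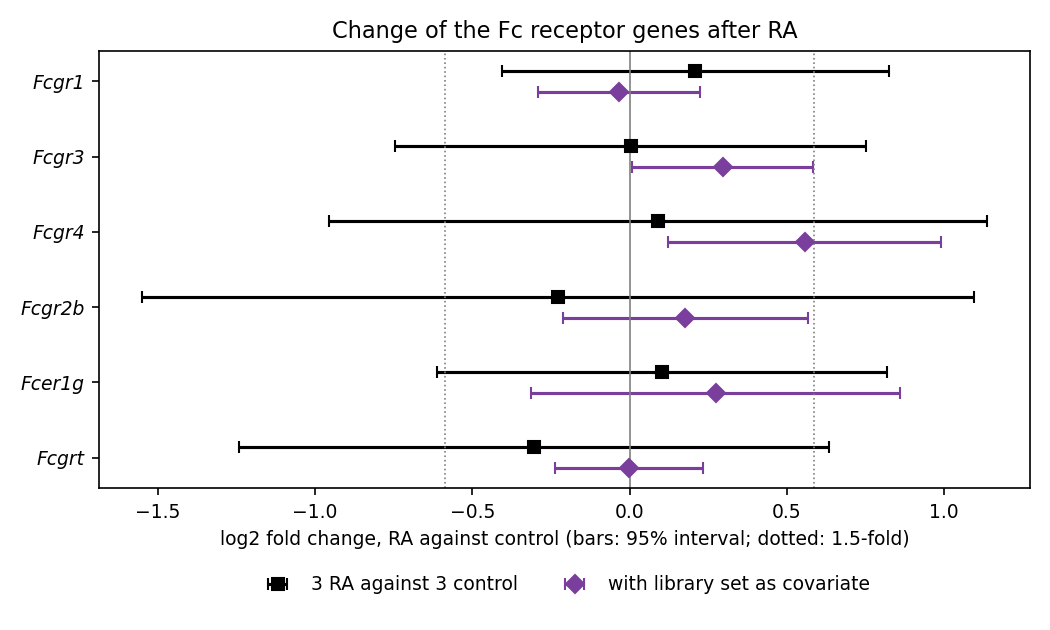
Log2 fold change of each gene after RA with its 95% interval, fitted without covariates or with library set as covariate; dotted lines mark a 1.5-fold difference. All 6 intervals without covariates include 0, and with the covariate those of Fcgr3 (0.0091 to 0.58) and Fcgr4 (0.12 to 0.99) lie above it before adjustment for multiple tests, in a fit whose sets were read from the same libraries.

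To compare levels between genes, CPM were divided by the median length of the coding transcripts of each gene in kilobases. Fcer1g was first in all 6 libraries at 720.7 to 1428.9 CPM per kb, far above the receptors. In controls Fcgr3 followed at 69.7 ± 23.5, then Fcgrt at 61.4 ± 20.1, Fcgr2b at 47.9 ± 23.4, Fcgr1 at 37.1 ± 6.90 and Fcgr4 at 34.5 ± 16.4 CPM per kb (SD, n = 3). After RA the means were 69.8 ± 20.2 for Fcgr3, 49.7 ± 24.4 for Fcgrt, 42.9 ± 13.0 for Fcgr1, 40.9 ± 28.0 for Fcgr2b and 36.8 ± 13.4 CPM per kb for Fcgr4. Below Fcer1g, neighbours in either order differed by less than the larger of their SDs. Fcgr3 came next after Fcer1g in 5 libraries, and in control 2 Fcgr1 stood above it. Fcgr1 was above Fcgrt, Fcgr2b and Fcgr4 in the 3 libraries of set 1 and the lowest of the 6 genes in those of set 2. The place of Fcgr2b depends on the length used, since over all its annotated exons its level would be 5.64 to 19.2 CPM per kb, in place of 21.5 to 73.0.

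For all 6 genes the log2 difference between the library sets was larger in size than that between treatments. Fcgr1 averaged 125.6 CPM in set 1 and 81.5 CPM in set 2, a log2 difference of 0.62, and all libraries of set 1 lay above those of set 2. Fcgr2b went the other way, with 37.2 CPM in set 1 and 97.8 CPM in set 2 (log2 difference -1.38). Fcgrt averaged 61.6 and 125.6 CPM (-1.03), Fcgr4 31.2 and 58.4 CPM (-0.97), and Fcgr3 71.5 and 115 CPM (-0.70), each with all libraries of set 1 below set 2. For Fcer1g the sets overlapped, at 659 and 825 CPM on average (-0.40). In all, 5 of the 6 genes had sets that did not overlap, as had 47.7% of all tested genes, and since the sets were drawn from the libraries' own values, these figures are a description without a test. Inside both sets, the RA mean was higher for 4 of 6 genes (Fcgr2b, Fcgr3, Fcgr4 and Fcer1g) and lower for 0 of 6, against 30.9% and 35% of all tested genes. Set 1 held 1 control and set 2 held 1 RA library, so that no spread is known there.

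**Figure D3:**
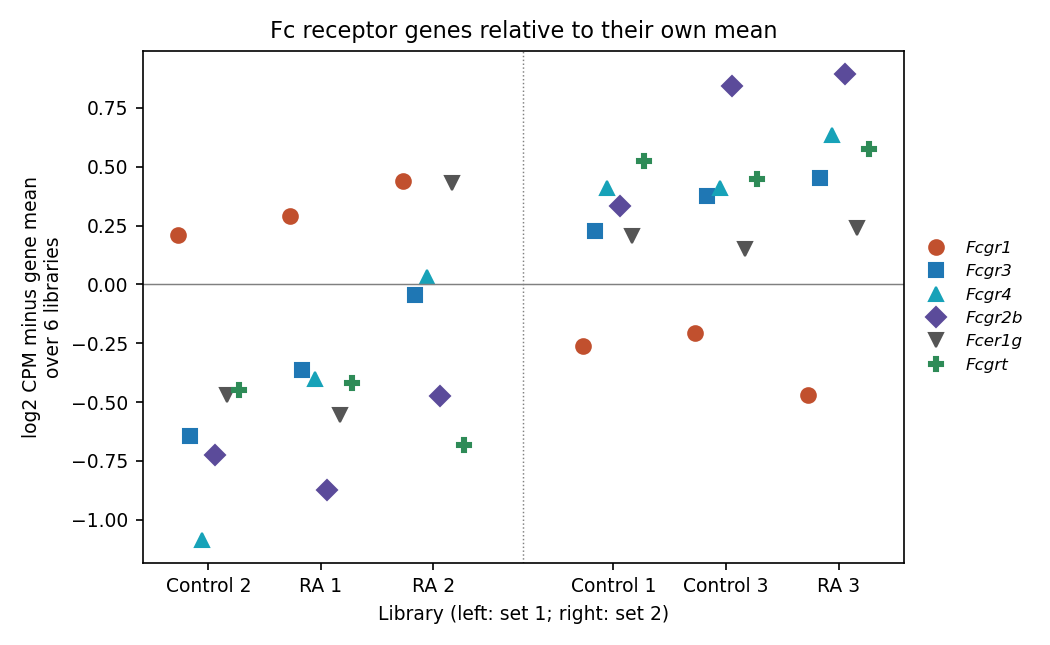
Log2 CPM of each gene minus its own mean over the 6 libraries, with the libraries of set 1 on the left of the dotted line and those of set 2 on the right. Fcgr1 lies above its mean in set 1 and below it in set 2, while Fcgr2b, Fcgr3, Fcgr4 and Fcgrt average lower in set 1.

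The balance of activating and inhibitory receptors was taken within each library from counts per kb, which needs no scaling between libraries. The size of each ratio depends on the lengths used, and ratios to Fcgr2b would be larger with lengths over all annotated exons. The ratio of Fcgr3 to Fcgr2b, the pair that shares sequence, was 1.59, 1.81 and 1.24 in controls and 2.44, 2.31 and 1.26 after RA. RA 1 and RA 2 were above every control, and RA 3 was near the lowest. On the log2 scale the means differed by 0.33 (exact permutation test, two-sided, p = 0.30, where 3 against 3 libraries cannot give less than 0.10, and adjusted p = 0.50 over the 2 ratios tested). The difference between treatments was 0.16 without RA 1 and 0.63 without RA 3. Within the sets the log2 differences were 0.39 and -0.16, while set 1 as a whole lay at 1.81 to 2.44 and set 2 at 1.24 to 1.59.

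The sum of Fcgr1, Fcgr3 and Fcgr4 over Fcgr2b was 3.14, 4.37 and 2.34 in controls and 5.82, 5.37 and 2.35 after RA. The order of the libraries was much the same, and the groups overlapped. The log2 difference was 0.40 (exact permutation test, two-sided, p = 0.50, adjusted p = 0.50), with 0.36 in set 1 and -0.21 in set 2. The sets lay at 4.37 to 5.82 and 2.34 to 3.14. Without RA 1 the difference between treatments was 0.16, and without RA 3 it was 0.82. Fcgr1 alone over Fcgr2b ranged most widely, from 0.386 in RA 3 to 2.22 in RA 1. The supply of the signalling chain was measured as Fcer1g over the sum of the 3 activating receptors. This ratio was 7.88, 7.39 and 7.12 in controls and 5.77, 9.40 and 7.29 after RA, so that RA 1 and RA 2, both of set 1, were the extremes and all 3 controls lay between them.

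**Figure D4:**
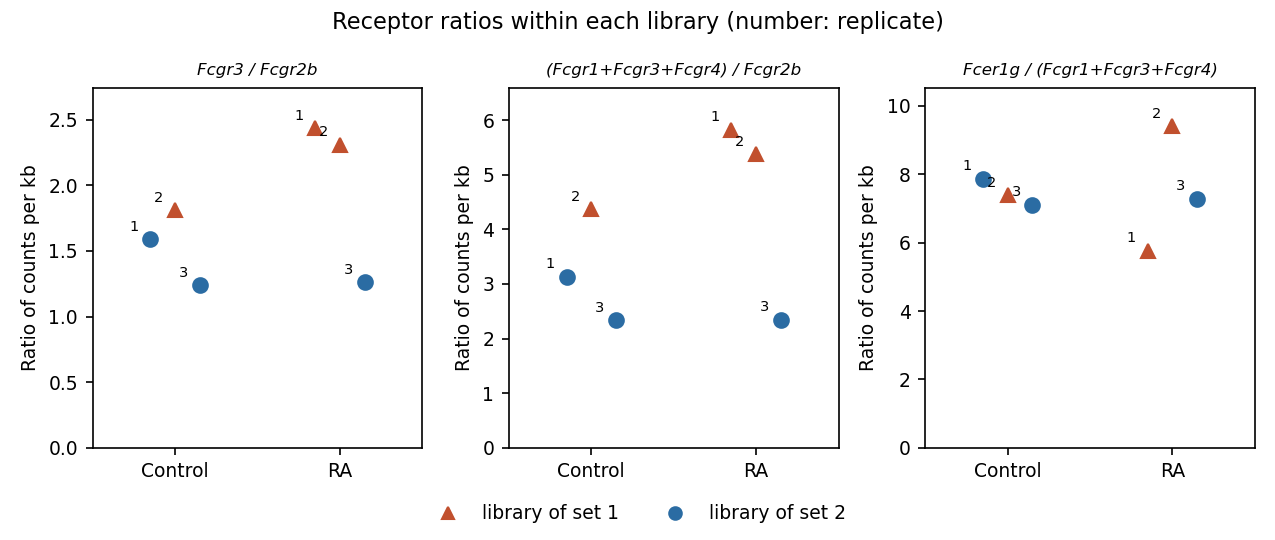
Ratios of counts per kb within each library, on axes that start at 0; numbers give the replicate and colours the library set. For the activating receptors over Fcgr2b, the 3 libraries of set 1 lie at 4.37 to 5.82 and those of set 2 at 2.34 to 3.14, in both treatments.

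Because the cultures expressed macrophage markers at high level, each gene was also set against the mean log2 CPM of the 14 markers, which ran from 9.07 to 9.74 over the libraries. Relative to the markers, the log2 difference between RA and control was 0.21 for Fcgr1 (exact permutation test, two-sided, p = 1), 0.066 for Fcgr3 (exact p = 0.70), 0.21 for Fcgr4 (exact p = 0.60), -0.26 for Fcgr2b (exact p = 0.70), 0.11 for Fcer1g (exact p = 0.80) and -0.31 for Fcgrt (exact p = 0.40). Adjusted over these 6 tests, the exact p was 1 for Fcgr1 and 0.96 for each of the others. The sets differed on this scale too. Fcgr1 stood at -2.24 relative to the markers in set 1 and at -3.34 in set 2, and Fcgr2b at -4.00 and -3.09. For Fcgr3 (-3.07 and -2.84) and Fcer1g (0.083 and 0.0029) the sets were closer. The marker mean itself lay at 9.07 to 9.34 in set 1 and at 9.59 to 9.74 in set 2, and the part of the markers in the receptor values was not tested.

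Beyond the receptors, 8 lists of genes that signal with them or resemble them held 49 genes, of which 45 were listed and 39 were tested. None was called, by edgeR's quasi-likelihood test, its likelihood ratio test, DESeq2 or the covariate fit (0 of 39 each), and 1 of 39 had an unadjusted p under 0.05, by edgeR and by DESeq2, against 5.25% of all tested genes by edgeR. Of the 39, 10 had higher and 29 lower fitted values after RA, with a median log2 fold change of -0.11 (range -0.65 to 0.49). Over all tested genes 6549 were higher and 7293 lower, with a median of -0.018. In the covariate fit 21 of the 39 were higher and 18 lower, with a median of 0.027, and 5 had an unadjusted p under 0.05 (Vav3 and Fcrl1 higher, Vav1, Inpp5d and Ptpn11 lower), against 15.1% of all tested genes. In 2 genes all RA libraries lay above the controls (5.71% of all tested genes did) and in 5 all lay below (6.87%).

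The single gene with an unadjusted p under 0.05 in the fit without covariates was Vav3, a signalling protein that acts downstream of Syk. Its levels were 29.1, 30.7 and 34.4 CPM in controls and 41.1, 42.4 and 39.8 CPM after RA. Every RA library was above every control. The log2 fold change was 0.39 (SE 0.12, edgeR adjusted p = 0.753). Adjusted p was 0.247 by DESeq2 and 0.163 with the covariate in edgeR, so it did not pass. Its relative Vav1, the form typical of blood cells, lay the other way, at 764, 730.1 and 712 CPM in controls and 588, 530.0 and 691 CPM after RA, without overlap (log2 fold change -0.29, edgeR adjusted p = 0.795).

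Of the 5 ITAM kinases, 0 were called, and 4 of 5 had lower fitted values (3 of 5 in the covariate fit). Fyn, a Src family kinase, had the largest value at -0.41 (edgeR adjusted p = 0.795), and Syk itself was at 745, 595 and 711 CPM in controls and 532, 562 and 708 CPM after RA. Of 5 tested adaptors, 4 had lower values (2 in the covariate fit), led by Grb2, which links receptors to Ras, at -0.20. The 8 effector enzymes had 6 lower values (4 in the covariate fit). All 3 inhibitory phosphatases, of the kind that Fcgr2b recruits, had lower values in both fits, and 0 were called. Inpp5d, the inositol phosphatase recruited by Fcgr2b, was at 517, 477 and 506 CPM in controls and 396, 398 and 471 CPM after RA. The groups did not overlap, although RA 3 came close to control 2 (log2 fold change -0.25, SE 0.13, edgeR adjusted p = 0.795).

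Of 8 genes of the phagocytic cytoskeleton, 6 had lower values (4 in the covariate fit) and 0 were called. Coro1a, an actin-binding protein of leukocytes, had the largest at -0.43, and all its RA libraries lay below the controls. Its levels were 797, 800 and 710 CPM in controls and 686, 354 and 667 CPM after RA. RA 2 decided much of the size, which was -0.18 without that library. Of 5 tested genes on the list of other ITAM chains and partner receptors, 0 were called, and 3 had lower values (2 in the covariate fit). This list also holds Pirb, an inhibitory receptor, which had 1 of the lower values (-0.047, and 0.17 in the covariate fit). Among the C-type lectin receptors of this list, Clec4n (Dectin-2), which signals through Fcer1g, was at 45.7, 9.31 and 59.2 CPM in controls and 10.8, 12.6 and 49.5 CPM after RA, low in all 3 libraries of set 1. Its relative Clec4e (Mincle), which signals through the same chain, was at 17.6, 72.4 and 13.3 CPM in controls and 65.5, 65.5 and 14.5 CPM after RA, high in all 3 libraries of set 1. Clec4d, a related C-type lectin receptor, did not part by set, at 166, 176 and 202 CPM in controls and 208, 216 and 204 CPM after RA, with all RA libraries above all controls (log2 fold change 0.21, edgeR adjusted p = 0.795). Clec4n and Clec4e did not pass the test for treatment either (log2 fold changes -0.65 and 0.49, edgeR adjusted p = 0.844 and 0.879), and both signs turned in the covariate fit (0.10 and -0.12). Tyrobp, the other ITAM chain of myeloid cells, had a log2 fold change of -0.14 (edgeR adjusted p = 0.862).

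**Figure D5:**
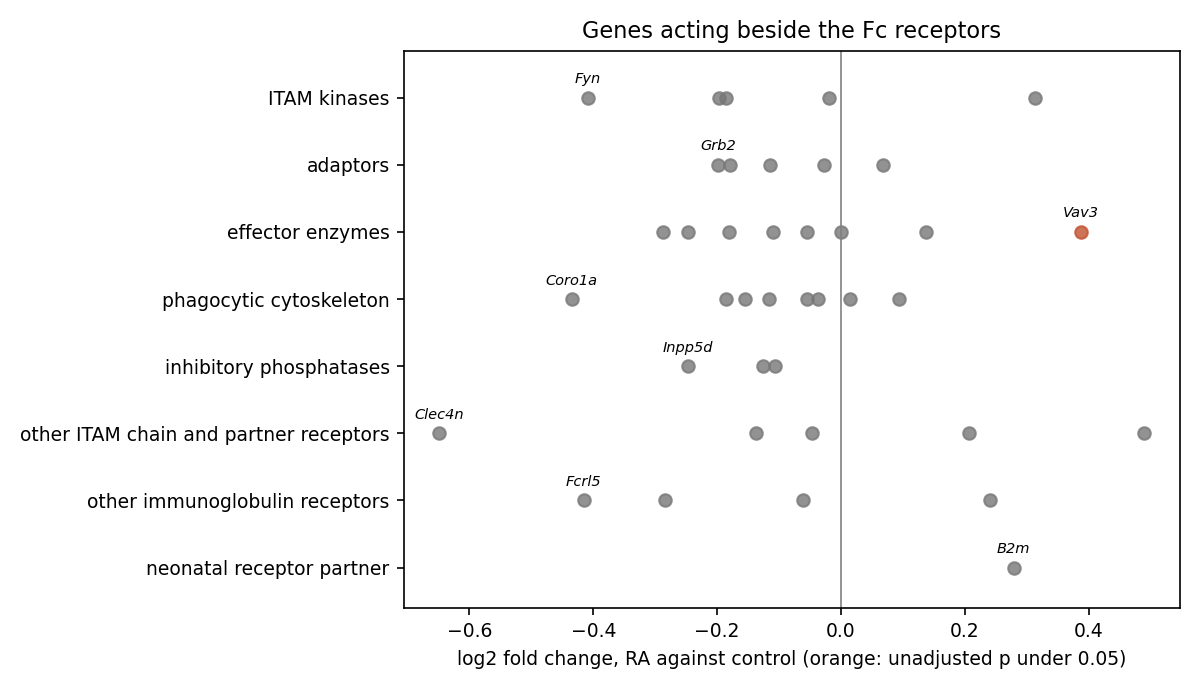
Log2 fold change after RA of each tested gene of the 8 lists, 1 line per list, with the gene at an unadjusted p under 0.05 in orange. Most of the 39 points lie left of 0, between -0.65 (Clec4n) and 0.49 (Clec4e), and the orange point is Vav3 at 0.39.

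Genes with a profile most like each receptor were taken by Pearson correlation of log2 CPM over the 6 libraries, as a description without a test. They were Slc25a24, E2f7 and Mdc1 for Fcgr1 (r = 0.998, 0.997 and 0.995), Foxn3, Ngly1 and Il7r for Fcgr2b (0.997, 0.995 and 0.993), and Hpgd and Ube2g1 for Fcgr3 (0.998 each) after the gene model Gm15675 (1.00). For Fcgr4 they were Chn2, Mertk and Miip (0.999, 0.997 and 0.997), for Fcer1g Tmem9b, Uqcrh and Gm42549 (0.993, 0.992 and 0.991), and for Fcgrt 0610012G03Rik, Atp13a2 and Slc2a9 (0.999, 0.998 and 0.998). These profiles rest on 6 libraries that fall into 2 sets, although Fcer1g did not part by set. Mertk, close to Fcgr4, is one of the macrophage markers. No gene among the closest 3 of a receptor was another of the 6 genes.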

How the data were processed

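Total RNA of BMSC cultures was sequenced in 6 libraries, and the authors deposited a count table for each library, with reads summed per gene and no normalization. The submitters' processing notes name Bowtie2 2.2.3 and the build mm10. The counting program, read length and use of strand are not given in the sources used here. All 25722 identifiers were found in GENCODE release M21, and 24 gene names turned into dates were replaced by its symbols. Groups and replicate numbers came from the labels. Chi-square per degree of freedom between libraries of a group was 4.56 (control 1 and 3) and 28.0 (RA 1 and 2) within library sets and 76.9 to 83.1 across them. All exceeded sampling noise, so no library was taken as deposited in duplicate, which does not show that the cultures were separate.

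Counts were analysed in R 4.3.3 with edgeR 4.0.16 (TMM scaling, filterByExpr, which kept 13842 genes, quasi-likelihood F test of 3 RA against 3 control libraries without covariates, Benjamini-Hochberg adjustment over all tested genes). Calls needed a 1.5-fold difference and an adjusted p under 0.05. The F statistic and the fitted log2 value gave SEs and intervals. A prior count of 2 was used for log2 CPM. Ratios and levels relative to markers were tested by exact permutation over the 20 splits of 6 libraries. The permutation test was first tried on a made-up case of fully separated groups, where it gave its smallest possible p of 0.10. Alternatives were library size and upper quartile scaling, DESeq2 1.42.0, the likelihood ratio test, 10 counts required of each library or 1 of any, the replicate block, the library set as a covariate, no fold threshold, and leaving out each library. The members and lists were chosen with earlier results of these data known. Named were the 6 members, and list genes with an unadjusted p under 0.05 or the largest difference of their list. Also named were the highest gene of each cell type list, the 3 most alike genes of each member, and Cyp26b1. Syk, Tyrobp, Pirb, Vav1, Clec4e, Clec4d, Fcrl1, Ptpn11, Adgre1, Itgam, Cxcl12, Eng, Lepr, Ly6a, Ctsk, Thy1 and Nt5e were added after their values were seen. At 14737636 to 18511905 counts per library, counting error is small for the members, and it covers counting only, since PCR copies do not represent separate molecules.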

Additional observations from a re-analysis of the deposited data

How the results depend on the processing

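Of 84 log2 fold changes of the receptors refitted under alternatives, 74 kept their direction and 10 turned sign, and none passed the threshold. Of 71 recomputed ratios and levels relative to markers, 64 kept their direction and 7 turned sign, and these could not have passed the threshold in a design of this size. The count of called genes stayed at 0 of 6 receptors and 0 of 39 signalling and partner genes under each alternative run. The smallest adjusted p of a receptor over the edgeR and DESeq2 settings was 0.242 (Fcgr4, library set as a covariate). With that covariate the log2 fold change turned to -0.035 for Fcgr1 and 0.18 for Fcgr2b. It also turned for Fcgr3 without control 2 (-0.24) and RA 3 (-0.25), for Fcgr4 without the same libraries (-0.25 and -0.23), for Fcer1g without control 2 (-0.065) and RA 2 (-0.098), and for Fcgr2b without control 3 (0.16) and RA 1 (0.10). Relative to the macrophage markers, the difference turned for Fcgr1 without RA 2 (-0.010) and as the mean within sets (-0.17), for Fcgr2b as the mean within sets (0.043), for Fcgr3 without control 2 (-0.053) and RA 3 (-0.0016), for Fcgr4 without control 2 (-0.087) and for Fcer1g without RA 2 (-0.13). The cause was not tested.

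Leaving out each library in turn, the log2 fold change ranged from 0.032 to 0.44 for Fcgr1, -0.95 to 0.16 for Fcgr2b, -0.25 to 0.20 for Fcgr3, -0.25 to 0.33 for Fcgr4, -0.098 to 0.37 for Fcer1g and -0.78 to -0.073 for Fcgrt. The log2 difference ranged from 0.16 to 0.63 for Fcgr3 over Fcgr2b and from 0.16 to 0.82 for the activating receptors over Fcgr2b. Relative to the markers it ranged from -0.010 to 0.64 for Fcgr1, -0.63 to -0.0086 for Fcgr2b, -0.053 to 0.15 for Fcgr3, -0.087 to 0.40 for Fcgr4, -0.13 to 0.30 for Fcer1g and -0.53 to -0.10 for Fcgrt.

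With the replicate number as a block, 0 of 6 receptors were called, with log2 fold changes of 0.18 (Fcgr1), -0.29 (Fcgr2b), 0.028 (Fcgr3), 0.17 (Fcgr4), 0.076 (Fcer1g) and -0.35 (Fcgrt). Of the 39 listed genes, Vav3 and Fyn had an unadjusted p under 0.05 with the block. Over all 13842 tested genes the block called 4, against 6 without it, 136 by DESeq2, 134 by the likelihood ratio test and 213 with the set covariate. Leaving out a library gave 0 to 6 calls, and of 25722 genes without the filter 20 were called. Same-numbered libraries deviated together with r = -0.51, 0.34 and 0.57, so the numbers are not taken as pairs. Precision rests on 3 libraries per group.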

Other observations

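Among genes that resemble Fc receptors, Fcrls, an Fc receptor-like scavenger receptor gene, was expressed far above the Fc gamma receptors, at 3927, 1598 and 3915 CPM in controls and 1910, 1944 and 3901 CPM after RA. It was low in all 3 libraries of set 1 and did not pass the test (log2 fold change -0.28, edgeR adjusted p = 0.870, and 0.13 with the set covariate). Fcrl5 was low and followed the same split, at 24.5, 6.28 and 28.3 CPM in controls and 4.39, 10.1 and 29.7 CPM after RA (log2 fold change -0.42, edgeR adjusted p = 0.899, and 0.19 with the set covariate). Fcrl1 stood at 9.84 to 20.6 CPM in controls and 14.8 to 21.4 CPM after RA (edgeR adjusted p = 0.844). Trim21, a cytosolic receptor for the Fc part of antibodies, was at 26.8 to 36.9 CPM in controls and 29.6 to 35.8 CPM after RA (edgeR adjusted p = 0.932). Of the 10 genes on this list of other immunoglobulin receptors, 7 were listed and 4 were tested, and 0 were called. Of these 4, 1 had a higher value without covariates and 4 with the set covariate. Fcrls, Fcrl1 and Trim21 were singled out after their values were seen.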
